A study of Rattus norvegicus with 123 samples.

Results

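The livers of rats given corn oil and of rats given carboxymethylcellulose (CMC) for 28 days were compared, both groups being vehicle controls. The series holds 123 arrays, of which 112 carry a positive quality label. The comparison used the 9 of those 112 arrays that share the set letter B and the day: 4 arrays of corn oil rats (labelled CO_B_28d, replicates 1, 2, 4 and 5) and 5 arrays of CMC rats (CMC_B_28d). The corn oil replicate 3 is labelled as not of good quality and entered no fit.

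The labels describe adult male Han Wistar rats throughout and name no transgene, and an exact age is not given. They were dosed by stomach tube every day and killed 1 day after dosing ended. Frozen liver was measured on Affymetrix RaGene 2.0 ST arrays. Neither group received a test compound, and the labelled dose of both is 0 mg/kg. In set B the CMC rats are the controls of Wy-14643 at 60 mg/kg, and the corn oil rats those of 1,4-dichlorobenzene (DCB) at 600 mg/kg. The other controls at 28 d were CMC of set A (5 arrays), CMC of set C (3 arrays), corn oil of set D (4 arrays), a second corn oil group of set D labelled F (4 arrays) and water of set E (5 arrays). The labels do not spell out the F, and a reading of it as female would go against their description of male animals, so values of that group are given apart and enter no tested difference below. At 14 d, CMC of sets A (5 arrays) and C (3 arrays) and corn oil of set D (4 arrays) are used. Other compounds used are all at 28 d. They are phenobarbital (80 mg/kg), piperonyl butoxide (600 mg/kg), methapyrilene (30 mg/kg), cyproterone acetate (100 mg/kg), pioglitazone (16 and 63 mg/kg) and rosiglitazone (10 mg/kg). The labels do not say what a set letter stands for, nor whether the groups of a set were housed, killed and hybridised together, and they speak of performing laboratories in the plural. A difference between vehicles and a difference in any such handling cannot be told apart.

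Corn oil is a triglyceride oil rich in linoleic acid, an omega-6 polyunsaturated fatty acid, and is absorbed and metabolised as dietary fat. CMC is a water-soluble cellulose derivative used to suspend poorly soluble compounds, and it is hardly absorbed. In rodent liver, polyunsaturated fatty acids are ligands of PPAR alpha, the nuclear receptor that switches on fatty acid oxidation genes, and they lower the activity of SREBP-1c, which drives fatty acid synthesis genes. Wy-14643 is a synthetic PPAR alpha agonist, and DCB is a chlorinated aromatic that induces drug-metabolising enzymes of rodent liver.

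The values carry Ensembl transcript identifiers only. None of them could be paired with a gene symbol, so whether fatty acid oxidation, fatty acid synthesis or other pathway genes differed was not tested. The liver label could not be checked against hepatocyte markers for the same reason. The 4 transcripts with the largest differences are given by identifier, and the others by rank and value. In bulk liver, fewer cells of a type and less RNA per cell cannot be told apart.

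The 9 arrays had like overall levels. The median log2 level of an array was 5.51 ± 0.02 (SD, n = 4) with corn oil and 5.49 ± 0.02 (n = 5) with CMC, which did not pass a test (exact two-sided permutation p = 0.254, over 126 splits). The interquartile range was 3.22 ± 0.11 with corn oil and 3.36 ± 0.06 with CMC (exact permutation p = 0.0556). Over the series, array medians lay between 5.44 and 5.66. The root mean square distance between arrays was 0.349 within the CMC group, 0.351 within the corn oil group and 0.376 between them. Corn oil replicate 5 was no nearer to its own group (mean distance 0.355) than to the CMC arrays (0.354). CMC arrays of set B lay farther, on average, from the CMC arrays of set A (0.390) and set C (0.388) than from the corn oil arrays of set B. The first principal component of the 9 arrays, with 21.2% of the variance, ran from -19.6 to -8.47 over the CMC arrays and from 1.85 to 30.5 over the corn oil arrays.

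A small set of liver transcripts differed between the vehicles, mostly by less than 2-fold. Of 22470 transcripts, 131 were called at an adjusted p under 0.05 in limma's moderated test, a share of 0.583%, and 2880 had an unadjusted p under 0.05. Levels were higher with corn oil for 73 of them (0.325% of all) and lower for 58 (0.258%), but this balance turned to 62 higher of 135 (45.9%) after centring each array on its median and to 79 higher of 185 (42.7%) without the dimmest 40% of transcripts. The size of the difference among the called transcripts ranged from 0.21 to 3.18 on the log2 scale with a median of 0.58, and 17 rose and 5 fell by at least 2-fold. The 4 corn oil arrays and the 5 CMC arrays did not overlap for 102 of the 131, 55 higher and 47 lower, against 968 (4.31%) of all transcripts. The 131 were called on these same arrays, so a high share without overlap follows from that choice and is no separate support. The called transcripts were brighter than the rest, with a median mean level of 6.69 against 5.50, and their residual SD over all groups was the same to 2 decimals (0.20 and 0.20). The 95% interval of the difference lay within 2-fold in either direction for 21835 transcripts (97.2%), with a median half-width of 0.27. The count rested on the spread taken from all 29 groups and on single arrays: 2 transcripts were called when only the vehicle groups of set B were fitted and 74 with its 4 groups, while all 123 arrays gave 304. It was 75 without corn oil replicate 1, 50 without corn oil replicate 2 and 248 without corn oil replicate 5.

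The same calls can be set beside control groups that received the same vehicle in different sets. CMC of set A differed from CMC of set B for 992 transcripts (4.41%), 404 higher and 588 lower, and the higher share of 40.7% was 25.1% after centring each array on its median. CMC of set C differed from CMC of set B for 796 (3.54%), 311 higher and 485 lower, a higher share of 39.1% that was 24.0% after centring. Corn oil of set D differed from corn oil of set B for 718 transcripts (3.2%), 359 in each direction. CMC of sets A and C differed from each other for 74 (0.329%), 35 higher in set A and 39 lower. Each comparison of the same vehicle with set B thus had more calls than the vehicle comparison within set B, and the comparison between CMC sets A and C had fewer. Single arrays moved these counts: the first was 552 without CMC A replicate 3, the second 497 without CMC B replicate 5 and 447, 300 and 423 without CMC C replicates 1, 2 and 3. The corn oil count was 398 without CO_B replicate 1 and 437 and 421 without CO_D replicates 2 and 3. The count for CMC A against C was 41, 32 and 117 without CMC A replicates 3, 4 and 5, and 38, 37 and 30 without CMC C replicates 1, 2 and 3. Water of set E differed from CMC of set B for 3165 transcripts (14.1%) and from corn oil of set B for 3789 (16.9%).

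**Figure D1:**
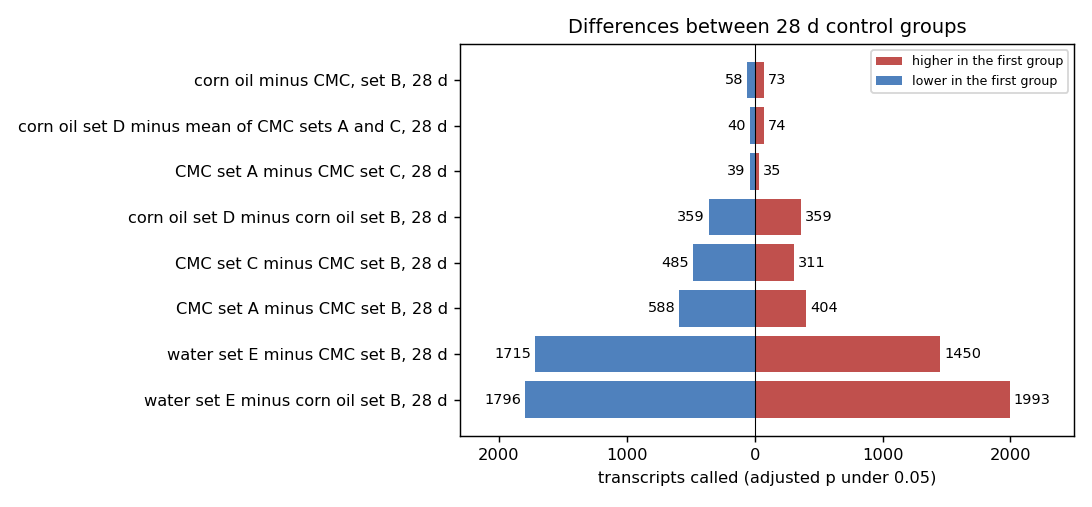
Number of transcripts called (adjusted p under 0.05 of 22470 tested) in each comparison of 28 d control groups, with transcripts higher in the first-named group to the right of 0 and lower ones to the left. The vehicle comparison of set B has 73 higher and 58 lower, fewer than each comparison of the same vehicle between set B and another set.

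The transcripts with the largest rises also differed between CMC groups of different sets. ENSRNOT00000058957 had log2 levels of 8.66, 10.39, 10.98 and 8.10 on the 4 corn oil arrays and of 6.30, 5.40, 6.73, 6.57 and 6.74 on the 5 CMC arrays. Every corn oil array was above every CMC array, and the corn oil arrays spread over a wider range. The difference was 3.18 (SE 0.47, adjusted p = 6.03e-06, exact permutation p = 0.00794, the smallest that 126 splits can give). The transcripts given by identifier were chosen for having no overlap between the groups. That choice by itself puts the exact p at or next to its smallest value, so for none of them is it further support. The left-out corn oil replicate 3 had 10.77. In the other control groups at 28 d its mean was 9.75 ± 0.52 (SD, n = 5) in CMC of set A, 6.29 ± 0.32 (n = 3) in CMC of set C, 8.09 ± 0.68 (n = 4) in corn oil of set D and 8.90 ± 1.03 (n = 5) in water. CMC of sets A and C thus differed by 3.46 (adjusted p = 6.42e-06) with the same vehicle. Over all 50 control arrays (14, 28 and 90 d, with the corn oil groups labelled F) its level ran from 5.40 to 11.71, the latter on a 14 d array labelled F. It stood at 6.85 ± 0.57 (n = 5) in the Wy-14643 rats and at 10.79 ± 0.25 (n = 4) in the DCB rats. Against their own vehicle groups neither difference was called, at 0.50 (adjusted p = 0.481) and 1.26 (adjusted p = 0.124).

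ENSRNOT00000067391 had the second largest rise. Its levels were 10.24, 12.32, 12.68 and 10.71 with corn oil and 7.68, 7.06, 9.32, 9.55 and 9.13 with CMC. The groups did not overlap, and in both of them the arrays spread over more than 2 log2 units. The difference was 2.94 (SE 0.50, adjusted p = 0.000154, exact permutation p = 0.00794). Its mean was 11.70 in CMC of set A and 7.71 in CMC of set C, a difference of 3.99 between groups with 1 vehicle. The transcript with the third largest rise, of 2.90, followed it with a residual correlation of 0.999 over the arrays, and the largest followed the third with one of 0.91, so these 3 are not independent counts. Of the 131 called transcripts, 14 had such a partner above 0.9, which leaves 123 separate groups. The named rises and falls are the 10 largest in each direction among the called transcripts whose arrays did not overlap. Of the 10 rises, 5 were also called between CMC of sets A and C, which share no array with set B, and of the 10 falls, 0. These 5 are the first 3, the fifth and the sixth. The fifth and the sixth followed each other with a residual correlation of 0.994, so they are not independent counts either. Over all 131 transcripts, 7 were called between those CMC sets (5.34%), against 0.329% of all, and the 7 include these 5 correlated rises.

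The largest falls were smaller. ENSRNOT00000058367 had levels of 7.30, 6.37, 6.68 and 6.83 with corn oil and of 8.65, 8.18, 7.92, 8.22 and 8.01 with CMC. All 4 corn oil arrays lay below the lowest CMC array, and the left-out corn oil array was lower still, at 5.69. The difference was -1.40 (SE 0.23, adjusted p = 0.000123, exact permutation p = 0.00794). Unlike the largest rises, it had a like level in each CMC group at 28 d, with means of 7.88 ± 0.31 (n = 5) in set A and 7.85 ± 0.11 (n = 3) in set C. Water rats had 8.38 ± 0.38 (n = 5) and corn oil rats of set D 7.14 ± 0.60 (n = 4). In the Wy-14643 rats it was at 5.67 ± 0.42 (n = 5), which was lower than in the CMC rats by -2.52 and than in the corn oil rats by -1.12 (adjusted p = 8.66e-05 for the second). The corn oil group of set D labelled F, a letter that may conflict with the description of male animals, had the lowest mean of the 28 d controls, 3.47 ± 0.53 (n = 4).

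ENSRNOT00000021070 had levels of 6.48, 6.05, 6.84 and 6.62 with corn oil and of 8.01, 7.75, 8.02, 7.57 and 7.42 with CMC. The groups did not overlap, and the left-out corn oil array, at 6.48, was on the corn oil side. The difference was -1.26 (SE 0.22, adjusted p = 0.000255, exact permutation p = 0.00794). Corn oil rats of set D had 7.19 ± 0.24 (n = 4), like CMC rats of set A with 7.20 ± 0.49 (n = 5), and water rats had 6.44 ± 0.47 (n = 5). With only the vehicle groups of set B in the fit, the adjusted p of the 4 transcripts given by identifier was 0.089, 0.168, 0.0601 and 0.0601, in the order given. The 8 other named falls ranged from -1.20 to -0.78, and the 7 other named rises after the first 3 from 1.15 to 2.27.

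**Figure D2:**
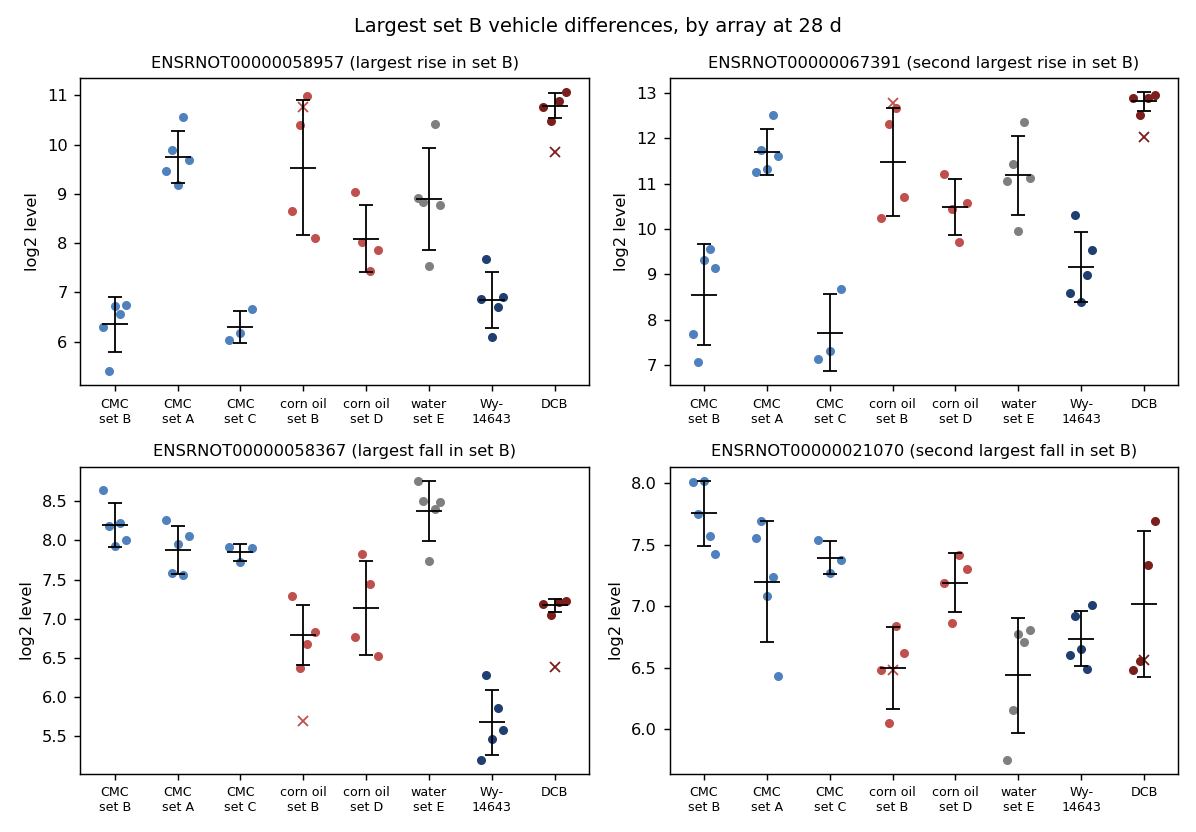
Log2 level of the 4 transcripts with the largest differences between the vehicles of set B, per array in the 28 d vehicle groups and in the set B compound groups, where a cross is an array with a negative quality label and the bar is the mean ± SD of the others. The upper transcripts are high in CMC of set A (means 9.75 and 11.70) and low in CMC of set C (6.29 and 7.71), while the largest fall is at 7.85 to 8.20 in all CMC groups.

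Corn oil was compared with CMC a second time in arrays that set B does not hold, as corn oil of set D minus the mean of CMC sets A and C. At 28 d, 114 transcripts were called (0.507%), 74 higher (0.329%) and 40 lower (0.178%). At 14 d, in other arrays of the same sets, 634 were called (2.82%), 444 higher (1.98%) and 190 lower (0.846%). Against a single CMC set at 28 d, corn oil of set D differed for 174 transcripts from set A (0.774%) and for 68 from set C (0.303%). These comparisons cross sets, so vehicle and set cannot be told apart in them. The 114 became 71 without CMC C replicate 2 and 41, 51, 75 and 60 without CO_D replicates 1 to 4. The 634 became 370 without the 14 d array CMC C replicate 1 and 412, 359, 363 and 372 without the 14 d CO_D replicates 1 to 4. The 174 became 100 and 105 without CMC A replicates 2 and 4 and 83, 110 and 92 without CO_D replicates 2, 3 and 4, and the 68 fell to between 26 and 45 without any of CMC C replicates 1, 2 and 3 or CO_D replicates 1, 2 and 4.

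Most of the set B differences had the same direction in these other arrays. Of the 131 transcripts, 103 (78.6%) had the same sign in the other sets at 28 d, against 56.3% of all transcripts. The share was 64.9% against CMC of set A alone (54.2% of all) and 80.9% against CMC of set C alone (56.7% of all). CMC of set A minus CMC of set C, with the same vehicle in both, had the set B sign for 90 (68.7%), against 52.7% of all. How much of the equal sign goes with vehicle and how much with set was not tested. Against the mean of both CMC sets, the median difference in the set B direction was 0.13, where it was 0.58 in set B itself. The 131 were chosen by their set B values, and that choice alone makes their size larger there. The 2 medians therefore do not show whether the vehicle difference was smaller in the other sets. Of the 131, 12 were called there (9.16%, against 0.507% of all transcripts), all in the set B direction, 10 higher and 2 lower. They make up 10.5% of the 114, and the 7 also called between CMC of sets A and C make up 9.46% of the 74 calls there. At 14 d, 81 of the 131 (61.8%) had the same sign, against 54.2% of all. Of the 131, 17 were called at 14 d (13.0%, against 2.82% of all), all in the set B direction. That 14 d share was 50% when the 131 were replaced by the calls made without corn oil replicate 2. The sign held at both days for 66 (50.4%), against 33.0% of all. All 20 named transcripts had the set B sign at 28 d and 12 had it at 14 d. Of the 20, only 4 were called at 28 d and 7 at 14 d. Some of the 28 d values were small, such as 0.07 for ENSRNOT00000058957 and -0.11 for ENSRNOT00000021070. Several of the 20 are correlated with each other, so their signs are not independent counts.

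The difference between the vehicle differences of set B and of the other sets was also tested. It was called for 8 transcripts (0.0356%), all of them among the 131, and 1827 had an unadjusted p under 0.05. All 8 lay beyond the other sets in the direction of their own set B difference. This test contains the set B difference by which the 131 were chosen. That the 8 are among the 131 and lie in that direction therefore largely follows from the shared arrays. Of the 8, 6 were higher with corn oil in set B and 2 were lower. ENSRNOT00000058957 was among the 8, with a vehicle difference of 3.18 in set B and 0.07 in the other sets (difference 3.12, SE 0.63, adjusted p = 0.0222). The 0.07 is against the mean of CMC sets A and C and hides opposite values. Corn oil of set D was at -1.66 against CMC of set A (adjusted p = 0.0624) and at 1.80 against CMC of set C (adjusted p = 0.136). The count was 2 and 5 without CMC B replicates 1 and 2, 14 without CMC C replicate 1, 3, 0 and 14 without CO_B replicates 1, 2 and 5, and 4, 4 and 2 without CO_D replicates 1, 2 and 3. After centring each array on its median, the split of higher against lower calls moved from 75% to 60% higher, and after quantile normalization it was 100%. For the other transcripts, a test that did not pass does not show that the vehicle difference was alike in the sets.

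**Figure D3:**
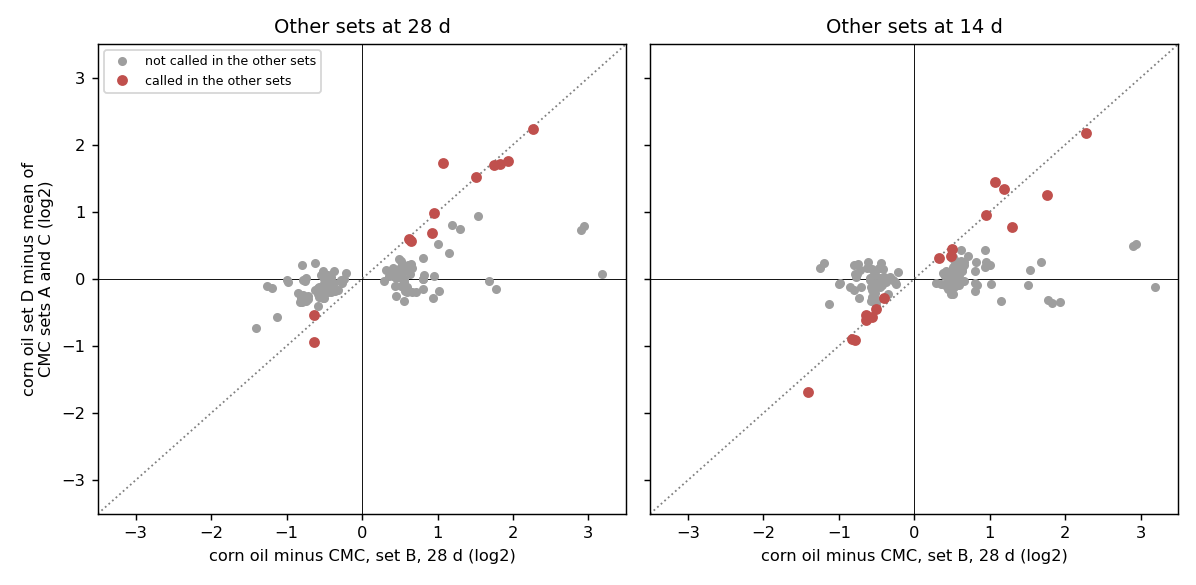
Log2 difference of corn oil minus CMC in set B (x axis) against corn oil of set D minus the mean of CMC sets A and C (y axis) at 28 d (left) and 14 d (right), 1 point for each of the 131 transcripts called in set B, with equal differences on the dotted line. The 12 and 17 transcripts also called in the other sets, in red, lie in the quadrants of equal sign, and most of the rest lie close to 0 on the y axis.

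A few transcripts differed between the vehicles in set B and again in the other sets at both days. They number 6, 4 higher and 2 lower with corn oil, and were picked out after their values had been seen. The other sets called 38 transcripts the same way at both days, and 37 of these (97.4%) had that sign in set B, against 56.3% of all. Their median difference was 0.24 there and 0.59 in the other sets at 28 d, by whose values the 38 were chosen. The 6 make up 15.8% of the 38, where 0.583% of all transcripts were called in set B. The 3 comparisons share the residual SD of each transcript, so calls of a low-spread transcript are not independent between them.

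The first of the 6, with the fourth largest rise, had levels of 6.53, 7.60, 7.91 and 6.16 with corn oil of set B and 4.79, 4.36, 4.58, 5.14 and 5.04 with CMC. Every corn oil array was above every CMC array by more than 1 log2 unit. Its difference was 2.27 (SE 0.41, adjusted p = 0.000376), beside 2.23 (adjusted p = 0.000195) in the other sets at 28 d and 2.17 (adjusted p = 0.000119) at 14 d. Its mean was 5.10 ± 0.39 (n = 5) in CMC of set A, 5.15 ± 0.55 (n = 3) in CMC of set C and 5.29 ± 0.71 (n = 5) in water, against 7.36 ± 0.77 (n = 4) in corn oil of set D. The arrays of set D ran from 6.63 to 8.37 and overlapped no CMC or water array at 28 d. The DCB rats, whose vehicle was corn oil, had 5.27 ± 0.46 (n = 4), near the CMC level, and the Wy-14643 rats, whose vehicle was CMC, had 6.32 ± 0.35 (n = 5).

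The second of the 6, with the seventh largest rise, had levels of 9.46, 9.48, 9.48 and 9.39 with corn oil and 7.57, 7.82, 7.72, 7.87 and 7.51 with CMC. The corn oil arrays lay within 0.1 of each other, and the groups were far apart. The difference was 1.75 (SE 0.26, adjusted p = 6.03e-06), and it was also called with only the vehicle groups of set B in the fit (adjusted p = 4.02e-05). It was 1.70 (adjusted p = 1.13e-06) in the other sets at 28 d and 1.24 (adjusted p = 0.000489) at 14 d. Water rats had 7.70 ± 0.79 (n = 5), like the CMC rats. Its level was higher in both compound groups of set B, 10.67 ± 0.23 (n = 5) with Wy-14643 and 11.26 ± 0.20 (n = 4) with DCB. In studies that share no array with set B it also rose with phenobarbital by 2.53, piperonyl butoxide by 3.22, methapyrilene by 2.15, cyproterone acetate (M groups) by 1.36 and pioglitazone at 63 mg/kg by 0.95, each against its own vehicle. It was not called with pioglitazone at 16 mg/kg (0.18, adjusted p = 0.907) or rosiglitazone (0.10, adjusted p = 0.949), and the 3 comparisons of these drugs share the same water arrays.

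The third and the fourth of the 6 also rose. The third had levels of 7.39, 7.43, 6.70 and 8.29 with corn oil and 5.71, 7.21, 6.31, 6.51 and 6.18 with CMC, so the groups overlapped. Its difference was 1.07 (adjusted p = 0.0229), beside 1.72 and 1.44 in the other sets at 28 and 14 d. Its adjusted p was 0.117 with the 4 groups of set B alone and between 0.0526 and 0.129 without CMC B replicate 1 or 5 or CO_B replicate 1, 2 or 5. The fourth had levels of 9.09, 9.24, 9.14 and 9.40 with corn oil and 8.14, 8.79, 8.12, 8.26 and 8.03 with CMC, without overlap. Its difference of 0.95 (SE 0.14, adjusted p = 6.03e-06) was 0.97 and 0.94 in the other sets at 28 and 14 d, nearly the same value in all 3. Wy-14643 rats exceeded their CMC controls by 4.42 for the third and by 2.81 for the fourth.

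The fifth and the sixth fell. The fifth had levels of 9.12, 9.06, 9.30 and 8.92 with corn oil and 9.92, 9.42, 9.80, 9.78 and 9.77 with CMC, without overlap. Its difference was -0.64 (SE 0.15, adjusted p = 0.0132), beside -0.54 and -0.62 in the other sets, and its adjusted p was 0.071 without CO_B replicate 2. It was lower by -1.95 in Wy-14643 rats than in their CMC controls. The sixth had 6.45, 5.35, 6.28 and 5.99 with corn oil and 6.47, 6.84, 6.62, 6.75 and 6.61 with CMC, where the highest corn oil array lay just under the lowest CMC array. Its difference was -0.64 (SE 0.15, adjusted p = 0.0235), beside -0.94 and -0.53 in the other sets. Its adjusted p was 0.132 with the 4 groups of set B alone, 0.0615 and 0.0599 without CMC B replicates 2 and 4, and 0.329 without CO_B replicate 2. With only the vehicle groups of set B in the fit, the second of these 6 was called and the other 5 were not.

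The corn oil group of set D labelled F did not follow the corn oil level for all 6. Its means were 8.83 ± 0.51, 9.23 ± 0.23, 6.80 ± 0.07 and 9.07 ± 0.10 (n = 4) for the first to the fourth, each above the means of the CMC and water groups at 28 d. For the fifth it had 9.84 ± 0.16, above CMC of set B (9.74), CMC of set C (9.74) and water (9.80) and not below them as the other corn oil groups were. For the sixth it had 6.27 ± 0.26, below the CMC and water means.

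**Figure D4:**
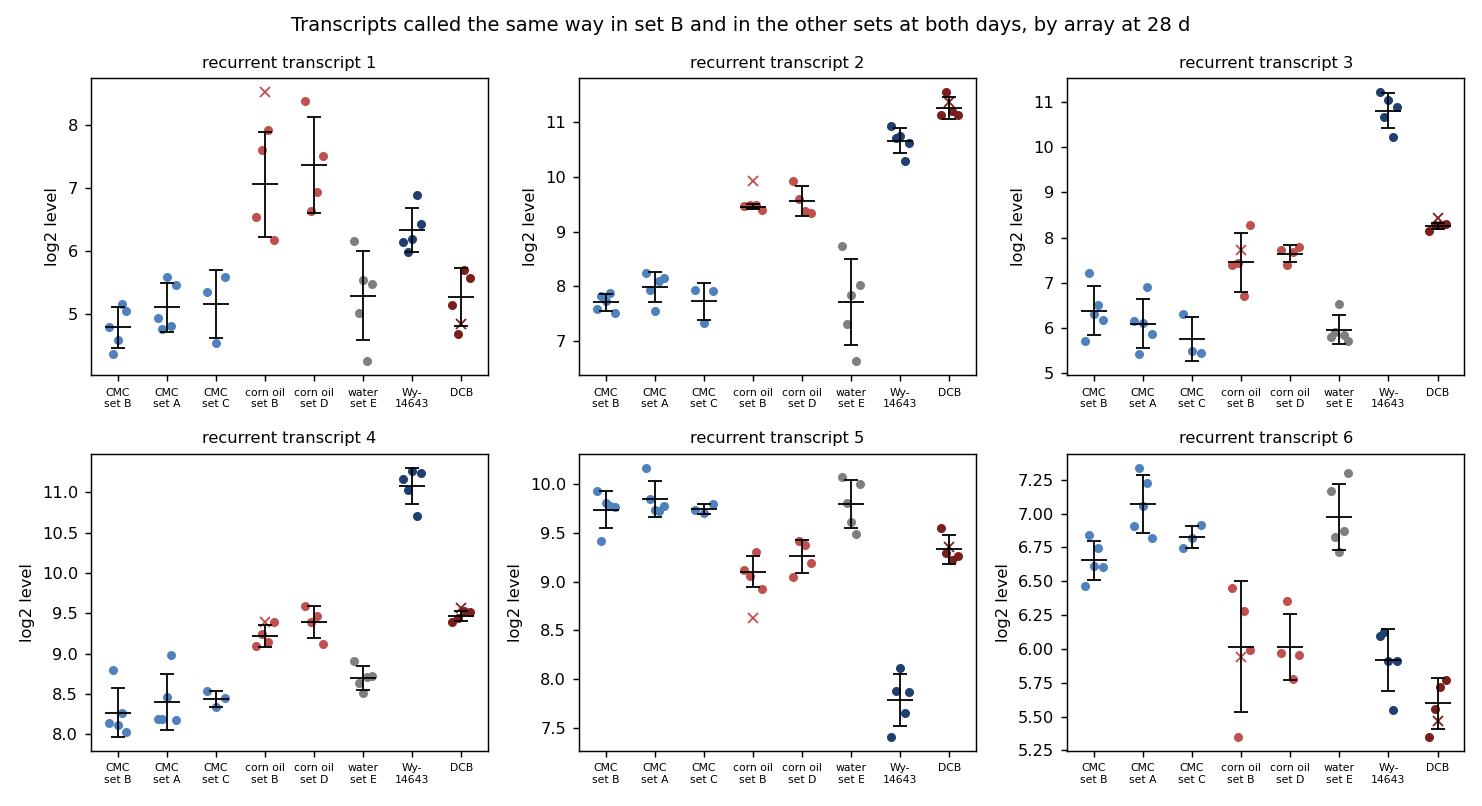
Log2 level per array at 28 d of the 6 transcripts called the same way in set B and in the other sets at both days, in the vehicle groups and the set B compound groups, where a cross is an array with a negative quality label and the bar is the mean ± SD of the others. The means of the plotted corn oil groups of sets B and D (without the group labelled F) are above those of the CMC and water groups for transcripts 1 to 4 and below them for 5 and 6, and single arrays overlap, as for transcript 3.

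The corn oil replicate 3 that the quality label left out was not used in choosing the 131 transcripts, so its values can be set beside them. It lay on the corn oil side of the midpoint of the group means for 111 of the 131 (84.7%), 63 of the 73 higher and 48 of the 58 lower, against 55.9% of all transcripts. On a scale with the CMC mean at 0 and the corn oil mean at 1, its median position was 1.07. It is a single array, and no test was made of it.

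The choice of vehicle group moved the counts of the set B compounds. DCB differed from corn oil, its own vehicle, for 1340 transcripts (5.96%), and from CMC for 2478 (11%). Wy-14643 differed from CMC, its own vehicle, for 5466 (24.3%), and from corn oil for 4835 (21.5%), where 52.6% of the calls were higher and 63.4% after centring each array on its median. DCB and Wy-14643 rats differed directly for 3293 transcripts (14.7%), a comparison in which compound and vehicle cannot be told apart. Of the 131 transcripts, 33 (25.2%) were called there, and 64 (48.9%) had the sign of the vehicle difference, against 52.0% of all. Between the compound groups that had received these same vehicles, the share with the sign of the vehicle difference was thus not above that of all transcripts.

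The 131 transcripts were also followed in compound studies that share no array with set B. Piperonyl butoxide changed 33 of them (25.2%), against 10.6% of all transcripts, 31 in the direction of corn oil, and 108 (82.4%) had that sign, against 57.6% of all. Methapyrilene at 30 mg/kg changed 30 (22.9%, against 9.43%), 26 in that direction, and 80 (61.1%) had that sign, against 48.6% of all. Both were compared with the same CMC arrays of set C, which also enter the comparison of corn oil of set D with CMC at 28 d. Their shares of equal sign are therefore not independent of the share in that comparison. Pioglitazone, an agonist of PPAR gamma, changed 12 at 63 mg/kg (9.16%, against 2.41%), all in that direction, and 105 (80.2%) had that sign, against 58.8% of all; at 16 mg/kg it changed 0, against 0.049% of all, and 80 (61.1%) had that sign, against 47.8%. Rosiglitazone, of the same class, changed 7 (5.34%, against 0.681%), all in that direction, and 85 (64.9%) had that sign, against 53.8%. The pioglitazone and rosiglitazone comparisons use the same 5 water arrays, so their directions are not independent. Phenobarbital changed 8 (6.11%, against 1.23%), 5 in the direction of corn oil and 3 against it, and 62 (47.3%) had that sign, against 48.8%. Cyproterone acetate in the M groups changed 28 (21.4%, against 11.3%), 14 in each direction, and 64 (48.9%) had the corn oil sign, against 48.5%. The controls of these last 2 compounds, CMC of set A and corn oil of set D, also enter the 28 d comparison across sets. The 131 are brighter than all transcripts (median level 6.69 against 5.50), and whether their higher shares called go with that was not tested.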

How the data were processed

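The deposited log2 expression values were used as they are. Per the submitters' processing notes the authors made these log2 values with RMA and affy (versions not given), and whether that was a single run over all arrays is not given in the sources used here. Groups, days, doses and quality labels were taken from the labels. Of 23110 probe sets, 640 equal to an earlier one on every array were left out, which left 22470. One mean per group was fitted to 29 groups and 112 arrays in limma (3.58.1, under R 4.3.3), using moderated variances without a trend (83 residual and 4.23 prior degrees of freedom). Adjusted p-values are Benjamini-Hochberg over all transcripts, at 0.05. The procedure was tested on simulated data. Single values were compared by exact two-sided permutation. The labels name separate samples of 5 to 6 rats per group, so p-values measure the spread between these arrays. No array carries a depth; the number of arrays limits the precision.

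The members, lists and tests were chosen with earlier results of these data known. Named transcripts were the 10 largest rises and falls among called transcripts without overlap between the groups. Gene and marker lists could not be run: 0 identifiers matched the RefSeq table of GRCr8 (47357 genes), and no sequences were matched. Same-numbered corn oil and CMC arrays had correlations of their deviations of 0.02, 0.10, 0.00 and -0.08, so the numbers were not taken as pairs. Alternatives were other array sets, centring, quantile normalization, a filter on dim transcripts, a variance trend, array weights, duplicates kept and leaving out single arrays.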

Additional observations from a re-analysis of the deposited data

Results flagged for a closer look

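The vehicle difference of ENSRNOT00000058957 differed between set B and the other sets by 3.12 on the log2 scale in limma's test of the difference itself (adjusted p = 0.0222). The value of the other sets is a mean over CMC of sets A and C. Corn oil of set D was at -1.66 against the first and at 1.80 against the second. Over all transcripts, 8 differed in this way between set B and the other sets. A sample far from the others of its group was looked for in 26 sets of values, those of 10 transcripts and 3 array summaries in the corn oil and the CMC group. It was found in 0, where chance finds about 1 in 20.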

How the results depend on the processing

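Of 522 alternative values of 29 results, 434 were counted as unchanged, and no difference changed sign. A difference counted as unchanged if it kept its direction and side of the threshold, and a count if it stayed within 1.5 times. A share had to stay within the 95% interval of its main value. The vehicle count of set B was 304 with all arrays, 74 with the 4 groups of set B, 2 with the 2 vehicle groups, 201 with control groups only and 280 with array weights. Array weights gave 1207 calls for corn oil D against B, 274 for D against CMC A, 124 against C and 216 against their mean, and controls only gave 45 for CMC A against C. The 8 differences between sets became 20 with all arrays, 1 with controls only, 5 after quantile normalization, 14 without the dimmest 40% and 23 with array weights. The share of equal sign at 28 d was 70.4% with all arrays. The left-out array was on the corn oil side for 75.7% with the 4 groups of set B, 50% with the 2 vehicle groups and 76.1% with controls only, each over that setting's own calls. Leaving out single arrays gave 50 to 248 calls for the vehicles of set B, 552 to 1155 for CMC A against B, 300 to 933 for C against B, 30 to 117 for A against C, 398 to 693 for corn oil D against B, 83 to 235 and 26 to 86 for corn oil D against CMC A and C, 41 to 137 for their mean, 359 to 635 at 14 d, and 0 to 14 for the difference between sets. It gave shares of 50 to 64.1% for equal sign at 14 d and 72.2 to 88.0% for the left-out array. The cause of these changes was not tested, apart from fewer arrays or groups in the fit where these were left out. With the replicate number as a block for pairing, 114 transcripts were called, and the same-numbered arrays did not deviate together. The fits with fewer groups estimate the spread from fewer arrays. Vehicle and any handling of the groups cannot be told apart, and only 4 and 5 arrays limit what differences could be called.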
